A study of Mus musculus with 99 samples.

Results

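The genes described here write DNA methylation (Dnmt1, Dnmt3a, Dnmt3b), oxidise it (Tet1, Tet2, Tet3) or encode the Gadd45 stress proteins (Gadd45a, Gadd45b, Gadd45g). They were chosen by symbol, and all 9 were found among the 37991 Ensembl genes of the count table. Their identifiers are ENSMUSG00000004099 (Dnmt1), ENSMUSG00000020661 (Dnmt3a), ENSMUSG00000027478 (Dnmt3b), ENSMUSG00000047146 (Tet1), ENSMUSG00000040943 (Tet2), ENSMUSG00000034832 (Tet3), ENSMUSG00000036390 (Gadd45a), ENSMUSG00000015312 (Gadd45b) and ENSMUSG00000021453 (Gadd45g). DNA methyltransferases put a methyl group on cytosine: Dnmt3a and Dnmt3b can methylate DNA that carried no mark, and Dnmt1 copies the mark to the new strand after replication. Tet enzymes are dioxygenases that turn the methyl group into hydroxymethyl and further oxidised forms, which base excision repair can replace with plain cytosine. Gadd45 proteins are small adaptors induced by DNA damage and other stress, they bind stress kinases of the p38 and JNK cascades, and in the mouse brain Gadd45b is an activity-induced gene linked to demethylation of promoters in neurons.

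The mice had gone through chronic social defeat, a stress procedure in which a mouse meets an aggressor repeatedly, except for the controls. Afterwards they were classed as susceptible or resilient, and susceptible mice given a drug were classed again as responders or non-responders. The 7 conditions were susceptible mice given ketamine that responded or did not respond, susceptible mice given imipramine that responded or did not respond, resilient mice given saline, susceptible mice given saline, and control mice given saline. Ketamine is a blocker of NMDA-type glutamate receptors and imipramine a tricyclic antidepressant. RNA came from prefrontal cortex (PFC), nucleus accumbens (NAC), ventral hippocampus (HIP) and basolateral amygdala (AMY). Each region had 3 ketamine responder, 3 ketamine non-responder, 3 imipramine responder, 4 imipramine non-responder, 4 resilient, 3 susceptible and 5 control libraries, with 4 control libraries in HIP, which gives 99 in all. Tissue of 2 mice was pooled for each library, so differences between single mice are not seen. The labels give no strain, age, dose or time of drug or of dissection, and they leave unsaid whether 1 mouse gave more than 1 region. In tissue RNA, fewer cells of a type and less RNA per cell cannot be told apart.

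Promoter sequences of the Gadd45 genes are shown because Gadd45b and Gadd45g gave 15 of the 28 smallest p-values between conditions described below, and these promoters share 2 motifs that the Gadd45a window does not hold. Each line is the 250 bases before the start site on the gene's own strand, from RefSeq on GRCm38.p6. Gadd45a lies at chr6:67037408-67037657 on the minus strand, Gadd45b at chr10:80929841-80930090 and Gadd45g at chr13:51846425-51846674, both on the plus strand. Capitals mark the E-box CACGTG and the TATA box TATAAA.
Gadd45a: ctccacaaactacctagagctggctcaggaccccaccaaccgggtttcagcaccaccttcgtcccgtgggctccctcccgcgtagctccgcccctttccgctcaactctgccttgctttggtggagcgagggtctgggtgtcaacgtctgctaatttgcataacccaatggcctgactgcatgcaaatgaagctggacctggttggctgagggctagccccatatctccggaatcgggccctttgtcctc
Gadd45b: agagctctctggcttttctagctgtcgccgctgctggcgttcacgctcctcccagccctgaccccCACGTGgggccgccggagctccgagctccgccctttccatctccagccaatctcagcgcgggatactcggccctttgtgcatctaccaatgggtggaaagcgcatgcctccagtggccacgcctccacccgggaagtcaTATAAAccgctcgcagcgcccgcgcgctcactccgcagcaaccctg
Gadd45g: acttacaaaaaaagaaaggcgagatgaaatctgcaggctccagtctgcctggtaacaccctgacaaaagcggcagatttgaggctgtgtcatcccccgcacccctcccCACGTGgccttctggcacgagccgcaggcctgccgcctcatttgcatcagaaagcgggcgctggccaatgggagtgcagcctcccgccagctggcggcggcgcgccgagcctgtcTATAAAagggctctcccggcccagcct
In Gadd45b the E-box begins 185 bases before the start site and the TATA box 46 bases before it. In Gadd45g they begin 142 and 27 bases before it. Both strands were searched, and among 32851 mouse promoter windows of the same length 6.02% held CACGTG and 12.4% held TATAAA. The window of start site 3 of Dnmt3a held CACGTG too, 80 bases before the site. Whether these motifs bear on the levels was not tested. The cAMP response element TGACGTCA (1.55% of windows), its core TGACG (17.8%) and the AP-1 site TGANTCA (6.75%) were searched in the same way and were not in the window of any member. TGACG is part of TGACGTCA, so those shares overlap. CG dinucleotides numbered 11 in Gadd45a, 22 in Gadd45b and 16 in Gadd45g, against a median of 6 over all windows, with quartiles of 2 and 16. Tet2 had 51, more than 99.9% of windows.

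Total counts per library ran from 14459028 to 59187954. Dnmt3b had only 7 to 64 counts per library and Gadd45a 35 to 171, and for these 2 genes counting error was close to the whole spread. The median coefficient of variation within the 28 groups was 23.4% for Dnmt3b and 13.8% for Gadd45a, where counting alone gives 22.5% and 11.4%. For the other 7 genes it was 5.83% to 13.9%, where counting alone gives 1.78% to 6.40%. The libraries do not mark the strand, and 337 exon bases of Gadd45a are shared with E230016M11Rik and 133 of Dnmt3a with Dnmt3aos on the opposite strand, so reads from these pairs cannot be told apart. Levels are given as CPM (counts scaled to library size) after TMM scaling over all 99 libraries. The NAC and HIP dissections were checked by defining genes in control mice. All 10 striatal projection neuron markers were highest in NAC: the dopamine receptors Drd1 and Drd2, for example, averaged 260.4 and 247.7 CPM in NAC, against 5.03 to 25.0 and 1.58 to 12.8 CPM elsewhere. Of 8 hippocampal markers 6 were highest in HIP, and Wfs1 and Kcnq5 were highest in NAC. Prox1, a granule cell factor and one of the 6, averaged 149.8 CPM in HIP, against 11.8 to 16.4 CPM elsewhere.

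A few libraries stood apart in a way that touched every family. A length index was taken for each library as the median deviation from the region's median library (log2) of genes in the top quartile of exon length, minus that of genes in the bottom quartile. The index was -1.48 in NAC imipramine responder 3, -1.42 in AMY imipramine responder 2 and -0.46 in AMY ketamine non-responder 1, against -0.17 to 0.16 in the other 96 libraries. In NAC imipramine responder 3, Tet1 stood at 0.358 times and Dnmt3a at 0.440 times the median of the other 24 NAC libraries, and Gadd45g at 2.79 times. In AMY imipramine responder 2, Tet1 stood at 0.360 times and Dnmt3a at 0.476 times the median of the other 24 AMY libraries, and Gadd45g at 2.27 times. Results on imipramine responders in these regions are therefore given with and without those libraries.

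Across libraries, the level of long-transcript members went with the index, and that of the short Gadd45 genes went against it. These are Pearson correlations of log2 deviations from the condition's mean within a region, over 99 libraries that share their depth and scaling, and they are given as a description. For Tet1, Tet3, Dnmt3a and Tet2 the correlations were 0.917, 0.893, 0.888 and 0.848. For Gadd45g, Gadd45a and Gadd45b they were -0.753, -0.618 and -0.607. Without the 3 libraries, Tet1 kept 0.715 and Gadd45g -0.438 over 96 libraries, while Dnmt1 went to 0.0124 from 0.743 over all. The plot of Tet1 and Gadd45g against the index shows both relations.

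The index also went with the order of the libraries. The sample numbers in the titles run through the libraries in 5 runs, which the labels do not call batches. Leaving out the 3 libraries, the index was below 0 in 17 of 17 libraries of the third run (-0.17 to -0.032, median -0.13), against medians of 0.0062 to 0.077 in the other runs, and the third run was low in each region. The correlations above remove the means of region and condition, not those of the runs. With the means of region and run removed as well, over 96 libraries, Tet1 had 0.504, Tet2 0.504, Dnmt3a 0.474 and Tet3 0.369 with the index, and Gadd45g -0.533, Gadd45b -0.444 and Gadd45a -0.285. Values of condition differences with the runs as a covariate are given below where they moved by over 1.5 times or changed a call.

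**Figure D1:**
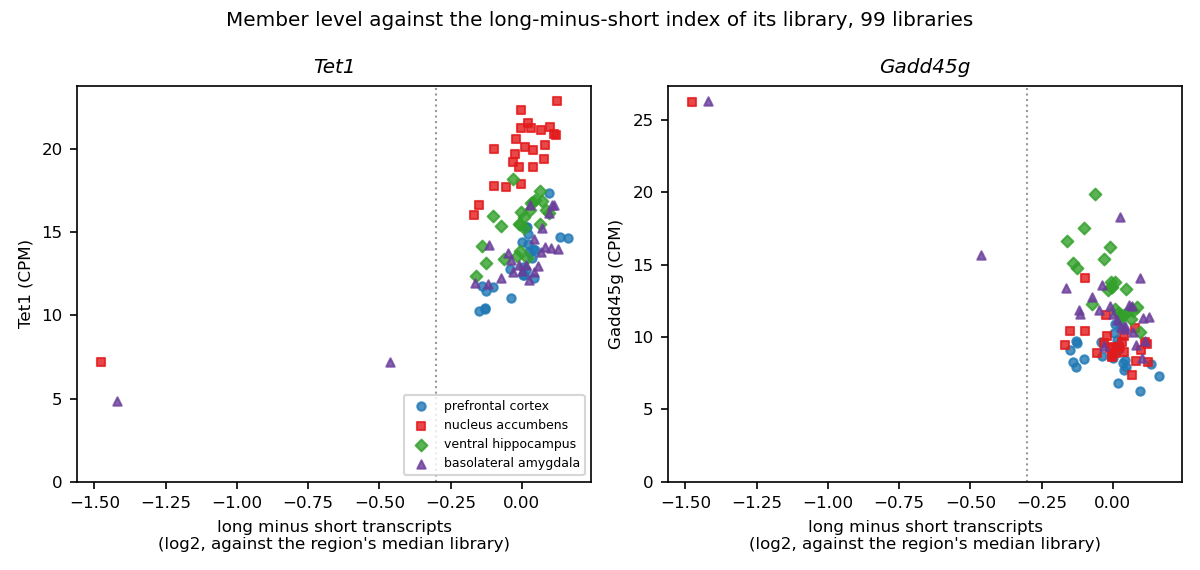
Level of Tet1 (left) and Gadd45g (right) in CPM (vertical axis) against the long-minus-short index of each of the 99 libraries (horizontal axis, log2), with regions by colour and marker. The dotted line separates 3 libraries at -0.46 or below from the other 96, and these 3 include the lowest Tet1 values and the highest Gadd45g values.

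Which regions carry each enzyme was asked in control mice. Of the 9 genes, 7 differed among the 4 regions by edgeR's quasi-likelihood test with Benjamini-Hochberg adjustment, beside 72.9% of the 17720 genes tested. Dnmt3a and the 3 Tet genes had their highest mean in NAC, Gadd45a and Dnmt1 had theirs in PFC, and Gadd45b (adjusted p = 0.283) and Dnmt3b (adjusted p = 0.716) were not called. Per kilobase of exon, regional means ran highest for Gadd45g (8.11 to 11.4 CPM per kb), Dnmt1 (7.15 to 10.9), Dnmt3a (5.25 to 9.72) and Gadd45b (5.65 to 6.94). Tet3 followed with 3.96 to 5.23 CPM per kb, then Tet2 with 2.26 to 3.38, Gadd45a with 1.08 to 1.92, Tet1 with 0.862 to 1.26 and Dnmt3b with 0.132 to 0.159. The neighbouring ranges of the first 4 genes overlap, so their order depends on the region.

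**Figure D2:**
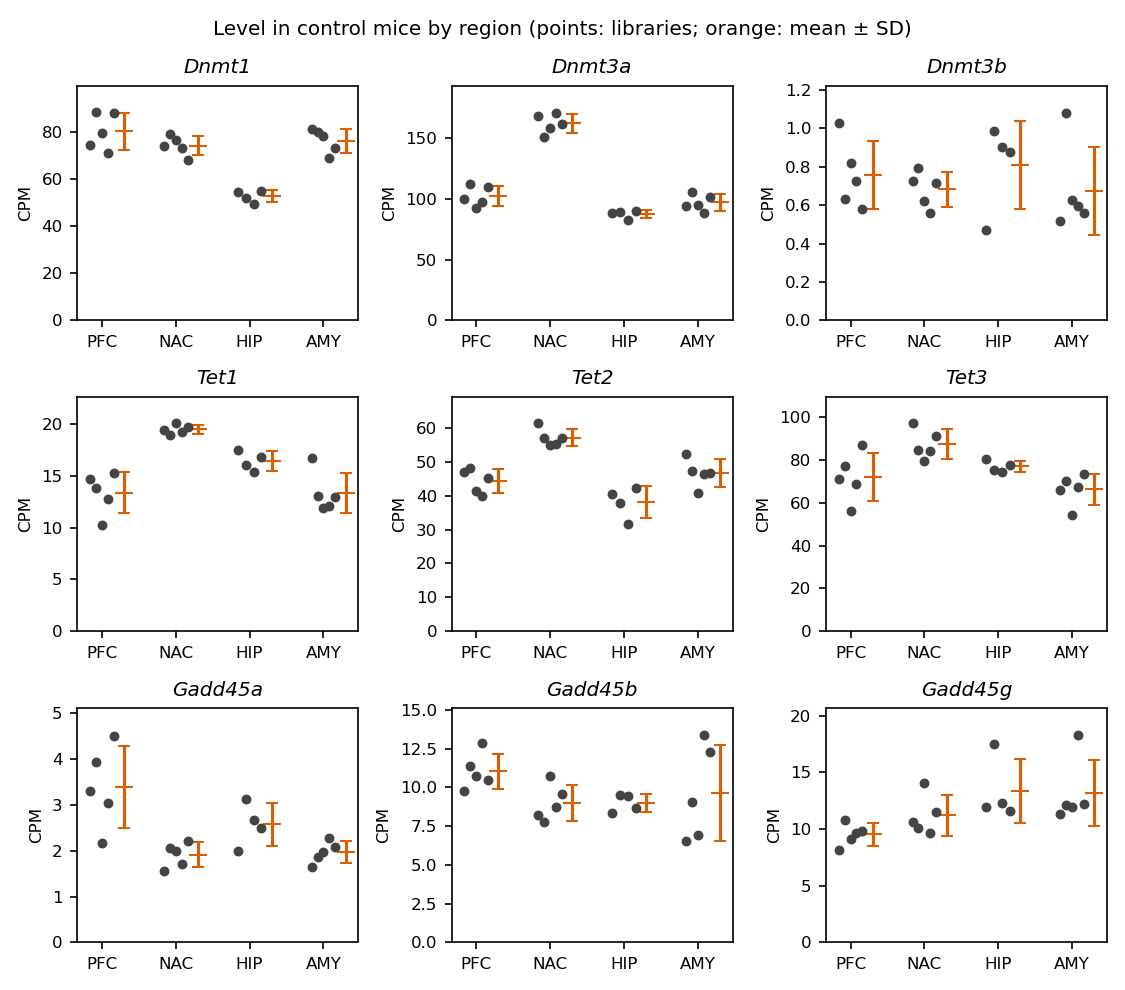
Levels of the 9 genes in control libraries in CPM (vertical axis, from 0) by region (horizontal axis). Points are libraries, and the orange mark and bar give the mean and SD (n = 5, with n = 4 in HIP); Dnmt3a in NAC lies apart from the other 3 regions and Gadd45b overlaps in all.

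Dnmt3a, the main methyltransferase of adult neurons, had 100.1, 112, 92.4, 97.2 and 109.8 CPM in PFC controls, against 168, 151, 158, 171 and 161 CPM in NAC controls. HIP controls had 88.2, 89.2, 82.3 and 89.8 CPM, and AMY controls 94.0, 106, 94.7, 88.5 and 101 CPM. Every NAC library lay above every library of the other regions. The PFC level was below the NAC level by a log2 fold change equal to -0.66 (SE 0.0603, adjusted p = 4.93e-09, edgeR's quasi-likelihood test). NAC was above HIP by 0.90 (SE 0.0649, adjusted p = 1.43e-10) and above AMY by 0.75 (SE 0.0602, adjusted p = 1.12e-09). PFC was also above HIP by 0.24 (adjusted p = 0.00491), and the PFC and HIP differences from AMY were not called (adjusted p = 0.288 and 0.0692).

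Dnmt1, the maintenance enzyme, was low in HIP. HIP controls had 54.5, 52.1, 49.5 and 54.8 CPM, against 69.1 to 81.2 CPM in AMY, and PFC and NAC controls ran from 71.2 to 88.5 and from 67.98 to 79.0 CPM. No HIP library reached the lowest library of another region. The log2 fold changes were 0.62 for PFC over HIP (SE 0.0723, adjusted p = 3.99e-07), 0.50 for NAC over HIP (SE 0.0721, adjusted p = 4.45e-06) and -0.53 for HIP over AMY (SE 0.0720, adjusted p = 3.21e-06, edgeR's quasi-likelihood test). The other 3 pairs were not called. Dnmt3b, the other de novo enzyme, averaged 0.757 ± 0.177 CPM in PFC, 0.683 ± 0.0922 in NAC, 0.810 ± 0.231 in HIP and 0.676 ± 0.229 in AMY (SD, n = 5, with n = 4 in HIP), and no pair of regions was called in controls. Over the mean of the 7 conditions, in the fit of all 99 libraries, Dnmt3b was highest in HIP. There PFC lay below HIP by -0.35 (adjusted p = 0.00306) and NAC by -0.58 (adjusted p = 2.50e-06, beside 68.97% of genes). HIP lay above AMY by 0.51 (adjusted p = 1.97e-05, beside 66.3% of genes, edgeR's quasi-likelihood test).

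The Tet dioxygenases all had their highest mean in NAC. Tet1 had 14.7, 13.8, 10.2, 12.8 and 15.3 CPM in PFC controls, against 19.4, 18.9, 20.0, 19.2 and 19.7 CPM in NAC controls, which made the log2 fold change -0.54 (SE 0.0957, adjusted p = 5.14e-05). The groups did not overlap, and the NAC libraries were closely spaced. HIP controls had 17.5, 16.0, 15.3 and 16.8 CPM of Tet1 and AMY controls 16.6, 13.1, 11.9, 12.1 and 12.9 CPM, so that NAC was above AMY by 0.55 (SE 0.0945, adjusted p = 4.80e-05, edgeR's quasi-likelihood test). The calls of Tet1 for PFC over HIP (-0.29, adjusted p = 0.0269), NAC over HIP (0.26, adjusted p = 0.0388) and HIP over AMY (0.30, adjusted p = 0.0223) were lost when single control libraries were left out: 4, 8 and 3 choices of the library ended them. The second also ended with median-ratio scaling (0.22, adjusted p = 0.0731). Over the mean of the 7 conditions, in the fit of all 99 libraries, all 3 differences were called. In the same order they were -0.23 (adjusted p = 0.00621), 0.32 (adjusted p = 0.000173) and 0.24 (adjusted p = 0.00503, edgeR's quasi-likelihood test).

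Tet2, the Tet protein without a CXXC domain of its own, averaged 57.0 ± 2.57 CPM in NAC, against 38.1 ± 4.63 CPM in HIP (SD, n = 5 and 4), which made the log2 fold change 0.59 (SE 0.0802, adjusted p = 2.10e-06). PFC lay below NAC by -0.37 (adjusted p = 0.000263), NAC above AMY by 0.30 (adjusted p = 0.00197) and HIP below AMY by -0.29 (adjusted p = 0.00519). PFC lay above HIP by 0.23 (adjusted p = 0.0263), a call that ended with no filter on low counts (0.21, adjusted p = 0.0586) or without PFC control 1 or 2 or HIP control 2 or 3 (0.15 at the lowest). Tet3 averaged 87.3 ± 6.91 CPM in NAC, against 66.2 ± 7.20 CPM in AMY (SD, n = 5 each), which made the log2 fold change 0.41 (SE 0.0912, adjusted p = 0.000755). PFC lay below NAC by -0.28 (adjusted p = 0.0126, edgeR's quasi-likelihood test), and without PFC control 3, the lowest PFC library at 56.1 CPM, this was -0.19 (adjusted p = 0.0610). Tet3 ran from 74.3 to 80.3 CPM in HIP controls, against 79.5 to 97.2 CPM in NAC. NAC over HIP was not called (0.19, adjusted p = 0.104). Over the mean of the 7 conditions, in the fit of all 99 libraries, it was 0.14 (adjusted p = 0.0321). There Tet3 for PFC over NAC was -0.24 (adjusted p = 0.000135), and Tet2 for PFC over HIP was 0.28 (adjusted p = 0.000134, edgeR's quasi-likelihood test).

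Among the Gadd45 genes, Gadd45a had its highest mean in PFC. It had 3.30, 3.94, 2.17, 3.05 and 4.50 CPM in PFC controls, against 1.56, 2.06, 2.00, 1.71 and 2.22 CPM in NAC controls, which made the log2 fold change 0.84 (SE 0.174, adjusted p = 0.000315). AMY controls had 1.64, 1.87, 1.97, 2.29 and 2.08 CPM, below PFC by 0.81 on the log2 scale (SE 0.171, adjusted p = 0.000760). One PFC library lay within the NAC and AMY ranges, and the other PFC libraries were above them. HIP controls ran from 2.00 to 3.13 CPM, and PFC over HIP was not called (0.42, adjusted p = 0.0725). Over the mean of the 7 conditions, in the fit of all 99 libraries, that difference was 0.39 (adjusted p = 0.000182, edgeR's quasi-likelihood test). Gadd45g had 8.17, 10.8, 9.11, 9.68 and 9.79 CPM in PFC controls, against 11.9, 17.5, 12.3 and 11.6 CPM in HIP controls and 11.3, 12.1, 11.9, 18.3 and 12.2 CPM in AMY controls. PFC lay below both, by -0.48 for HIP (adjusted p = 0.0132) and -0.45 for AMY (adjusted p = 0.0152, edgeR's quasi-likelihood test). Each call in controls ended without 1 high library: -0.32 (adjusted p = 0.0989) without HIP control 2 and -0.31 (adjusted p = 0.0564) without AMY control 4. Over the mean of the 7 conditions, in the fit of all 99 libraries, both differences were called. PFC lay below HIP by -0.64 (adjusted p = 8.77e-11) and below AMY by -0.51 (adjusted p = 7.56e-08, edgeR's quasi-likelihood test). In that fit 61.8% of all genes were called for PFC against AMY.

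Over the 6 pairs of regions, 5 of 9 genes were called for PFC against NAC, 5 for PFC against HIP, 2 for PFC against AMY, 4 for NAC against HIP, 4 for NAC against AMY and 3 for HIP against AMY. The shares of all genes called were 56.2%, 41.9%, 36.1%, 50.9%, 49.9% and 40.6%, in the same order. The counts of members are thus near the background. The median log2 fold change of genes in the top length quartile ran from -0.0014 to 0.021 over the 6 pairs, against -0.084 to 0.055 for the bottom quartile. A class median does not show how single genes moved, and the part of length in the regional differences was not tested.

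Related genes were described by lists drawn up from textbook pathways, with earlier results of these data known. Of 14 partners and readers of methylation that were tested, among them Uhrf1 and the Mbd genes, 1 was called higher and 6 lower in PFC than in NAC (50.0%, beside 56.2% of all genes), and 5 were higher and 0 lower in NAC than in HIP (35.7%, beside 50.9%). Over the 6 pairs of regions 2 to 7 of the 14 were called. Of 17 genes of active demethylation and base excision repair, such as Tdg and Xrcc1, 3 were higher and 6 lower in PFC than in NAC (52.9%), and 5 to 10 were called over the 6 pairs. Of 16 genes of methyl donor and 2-oxoglutarate metabolism, 4 were higher and 7 lower in PFC than in NAC, and of 13 Gadd45 signalling partners, 2 were higher and 4 lower (68.8% and 46.2%). Over the 6 pairs, 7 to 11 of the 16 and 4 to 7 of the 13 were called. Whether the direction within a list differs from that of all genes was not tested.

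Whether stress, resilience or drug response went with these genes was asked within each region, in 11 comparisons. Besides each pair of groups, the mean of susceptible and resilient saline mice was set against controls (defeated against control), and ketamine against imipramine over both response classes. Of 396 tests, being 44 comparisons of 9 genes, 0 were called at an adjusted p below 0.05 by edgeR's quasi-likelihood test, and DESeq2 also called 0. At an unadjusted p below 0.05 there were 28 (7.07%), beside 4.61% of all genes in the same comparisons. PFC held 15 of the 28, AMY 7, NAC 3 and HIP 3, of 99 tests each. By comparison, the share of all genes at that threshold ran from 1.97% to 9.36% in PFC and from 1.30% to 15.3% in AMY. It ran from 0.389% to 17.4% in NAC and from 0.935% to 11.6% in HIP. Many of the 28 tests share the susceptible or control libraries, so they are not 28 separate results.

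The background was sparse. In 39 of the 44 comparisons 0 of all genes were called (0%), and the others were HIP ketamine against imipramine (1.39% of genes), HIP ketamine responders against susceptible mice (0.670%), HIP ketamine non-responders against susceptible mice (0.00563%), NAC ketamine against imipramine (0.00564%) and AMY ketamine against imipramine (0.0163%). DESeq2 called genes in 16 comparisons, up to 465. The 368 tests not named below had log2 fold changes of -0.49 to 0.54.

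**Figure D3:**
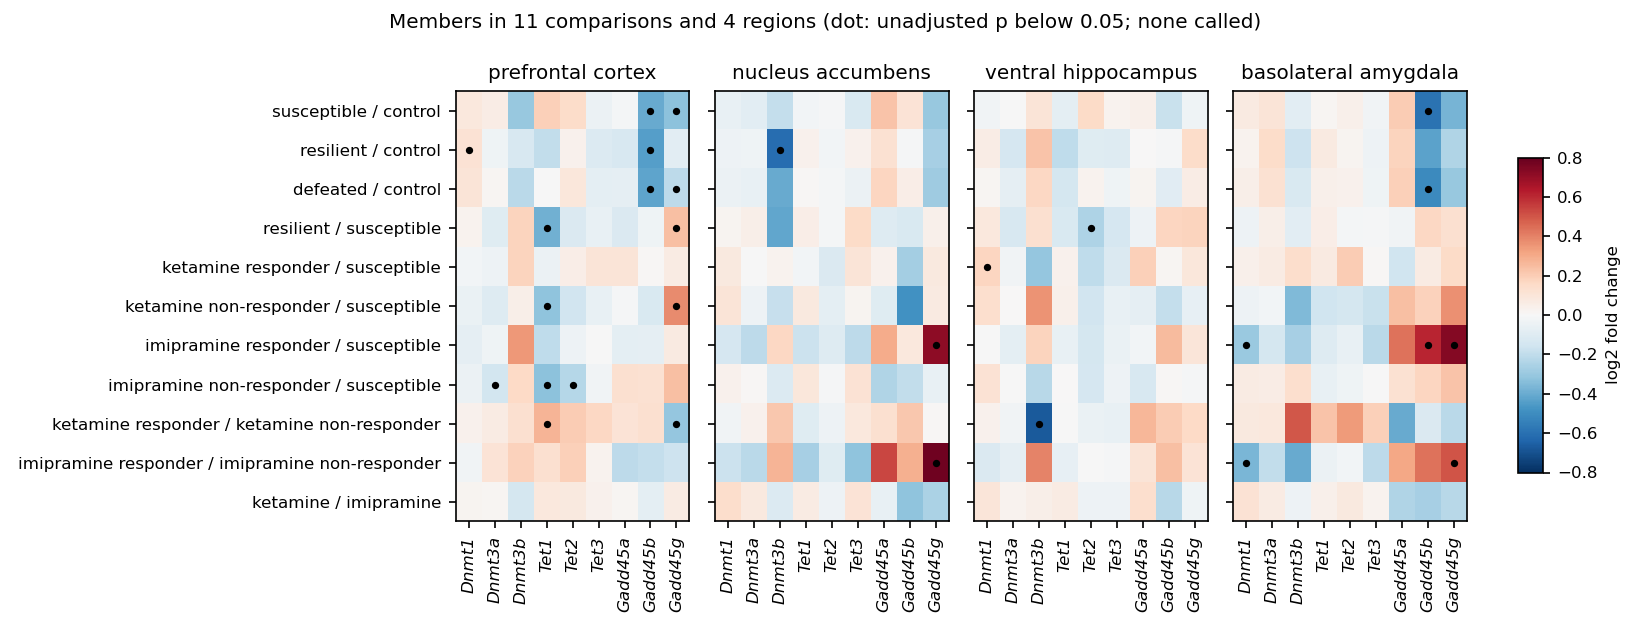
Log2 fold change (colour; red is higher and blue lower in the first-named group) of the 9 genes (columns) in 11 comparisons (rows) in each of 4 regions. Dots mark 28 tests with an unadjusted p below 0.05, of which 0 were called after adjustment. PFC holds 15 of them, in comparisons that share libraries.

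For any difference among the 7 conditions, 0 of 36 tests were called and 3 had an unadjusted p below 0.05, all in PFC: Gadd45b (adjusted p = 0.118), Tet1 and Gadd45g. The share of all genes called was 0.137% in PFC, 0% in NAC, 0.535% in HIP and 0.0109% in AMY, and in PFC 5.87% of genes had an unadjusted p below 0.05. DESeq2 called Gadd45b in PFC, among 150 genes. With the runs of sample numbers in the titles as a covariate, edgeR called it among 69 genes.

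Among the methyltransferases 7 tests had an unadjusted p below 0.05 and 0 were called. Dnmt1 in PFC had 86.5, 88.9, 84.1 and 88.1 CPM in resilient mice, against 74.4, 88.5, 79.5, 71.2 and 88.0 CPM in controls. The groups overlapped at the top, and the log2 fold change was 0.12 (SE 0.0559, adjusted p = 0.531, edgeR's quasi-likelihood test), where 9.36% of all genes had an unadjusted p below 0.05. Without PFC control 4, the lowest library, it was 0.077. In HIP, Dnmt1 had 54.7, 58.0 and 62.1 CPM in ketamine responders, against 48.1, 52.8 and 54.0 CPM in susceptible saline mice, which made the log2 fold change 0.17 (SE 0.0773, adjusted p = 0.453). The groups did not overlap, as was so for 12.8% of all genes. There 9.98% of genes had an unadjusted p below 0.05, and 10 markers of thalamus had summed levels of 318.5 to 1166 CPM in ketamine responders, against 142.5 to 146.0 CPM in susceptible mice. Mural and meningeal markers summed to 120.5 to 160.3 CPM in ketamine responders, against 75.4 to 81.9 CPM in susceptible mice, and choroid plexus markers to 53.2 to 2586 CPM, against 44.99 to 50.5 CPM. Hippocampal markers were lower, at 942.0 to 1286 CPM in ketamine responders, against 1315 to 1401 CPM in susceptible mice. The part of these in the Dnmt1 difference was not tested.

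In AMY, Dnmt1 had 77.2, 44.4 and 72.8 CPM in imipramine responders, against 82.0, 90.9, 78.9 and 83.0 CPM in imipramine non-responders and 82.8, 80.6 and 76.8 CPM in susceptible mice. Imipramine responder 2, the library with the low length index, set the low value. The log2 fold change was -0.37 over non-responders (SE 0.122, adjusted p = 0.304) and -0.30 over susceptible mice (SE 0.130, adjusted p = 0.395, edgeR's quasi-likelihood test). Without that library they were -0.15 and -0.08, and without imipramine responder 1 the second was -0.46. Leaving out imipramine responder 1 or 3 instead made the first a call, at -0.54 (adjusted p = 0.0392) and -0.45 (adjusted p = 0.0441). Both of those fits keep imipramine responder 2, and the share of all genes called in them is not given. With every library kept, 15.3% of all genes had an unadjusted p below 0.05 over non-responders and 12.2% over susceptible mice.

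Dnmt3a in PFC had 102, 92.5, 93.5 and 101 CPM in imipramine non-responders, against 109, 105 and 106 CPM in susceptible mice. The groups did not overlap, as was so for 6.31% of all genes, and the log2 fold change was -0.14 (SE 0.0681, adjusted p = 0.952), where 4.24% of genes had an unadjusted p below 0.05. Over all 44 comparisons, Dnmt3a stayed between -0.22 and 0.15. Dnmt3b in NAC had 0.429, 0.395, 0.597 and 0.363 CPM in resilient mice, against 0.725, 0.796, 0.620, 0.562 and 0.713 CPM in controls, with 1 resilient library above the lowest control. The log2 fold change was -0.61 (SE 0.209, adjusted p = 1.00, beside 1.64% of genes). In HIP it had 0.677, 0.465 and 0.898 CPM in ketamine responders, against 1.13, 1.02 and 1.15 CPM in ketamine non-responders, with no overlap, which held for 9.57% of all genes. That log2 fold change was -0.67 (SE 0.288, adjusted p = 0.702, edgeR's quasi-likelihood test, beside 6.94% of genes).

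Among the Tet genes, Tet1 in PFC was highest in susceptible saline mice and ketamine responders. It had 12.2, 10.4, 11.0 and 12.9 CPM in resilient mice, against 17.4, 14.4 and 13.9 CPM in susceptible mice, and every resilient library lay below every susceptible one. Groups lay apart in this comparison for 6.72% of all genes. The log2 fold change was -0.39 (SE 0.116, adjusted p = 0.959, edgeR's quasi-likelihood test, beside 4.27% of genes at an unadjusted p below 0.05). Without susceptible 1, the highest library, it was -0.28.

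In the drug groups, Tet1 in PFC had 3 tests with an unadjusted p below 0.05, and 2 of them share the 3 susceptible libraries with the comparison above. It had 14.9, 15.3 and 14.0 CPM in ketamine responders, against 11.7, 12.4 and 12.5 CPM in ketamine non-responders, with no overlap (so for 10.5% of all genes), at a log2 fold change equal to 0.27 (SE 0.125, adjusted p = 1.00, beside 4.54% of genes). With the runs of sample numbers as a covariate it was 0.12 (adjusted p = 1.00). The length index ran from 0.018 to 0.037 in ketamine responders, against -0.10 to 0.0083 in non-responders, and thalamic markers summed to 134.9 to 195.7 CPM, against 129.9 to 134.4 CPM. Their part in the difference was not tested. Ketamine non-responders were below susceptible mice by -0.32 (SE 0.125, adjusted p = 0.999, beside 4.34% of genes), with no overlap, which held for 10.7% of all genes. This was -0.21 both without susceptible 1 and with the runs as a covariate. Imipramine non-responders, at 14.3, 10.4, 11.5 and 12.7 CPM, were below susceptible mice by -0.33 (SE 0.117, adjusted p = 0.952, edgeR's quasi-likelihood test) and overlapped with them. Control libraries had 14.7, 13.8, 10.2, 12.8 and 15.3 CPM and spanned most of the values of the other groups.

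Several measures moved with Tet1 in PFC. The length index ran from -0.13 to 0.041 in resilient libraries, against 0 to 0.095 in susceptible ones. Summed oligodendrocyte markers ran from 1213 to 1392 CPM in resilient libraries, against 1532 to 1822 CPM in susceptible ones, and all 8 markers had negative log2 fold changes, 5 of them at an unadjusted p below 0.05. Neuron markers summed to 6325 to 6641 CPM in resilient libraries, against 6761 to 7270 CPM in susceptible ones, and inhibitory neuron markers to 760.5 to 796.4 CPM, against 802.1 to 840.0 CPM. Thalamic markers summed to 109.9 to 128.7 CPM in resilient libraries, against 129.8 to 144.4 CPM in susceptible ones, and ependymal markers to 4.53 to 5.39 CPM, against 5.64 to 6.09 CPM. The resilient libraries were the lower group in these 5 lists. The 5 are named because they lay apart in this way, so they are not a count over all marker lists. Astrocyte markers, for example, overlapped, at 2933 to 3672 CPM in resilient libraries, against 3595 to 4112 CPM in susceptible ones. Choroid plexus markers overlapped, as they summed to 4.63 to 5.20 CPM in resilient libraries, against 5.16 to 516.3 CPM in susceptible ones, the highest value being a single library. The part of these in the Tet1 difference was not tested.

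Tet2 in HIP had 38.3, 30.9, 31.3 and 40.9 CPM in resilient mice, against 42.2, 41.5 and 42.8 CPM in susceptible mice. The groups did not overlap, as was so for 4.75% of all genes, and the log2 fold change was -0.25 (SE 0.119, adjusted p = 1.00, beside 2.08% of genes). With the runs as a covariate it was -0.12 (adjusted p = 1.00). Hippocampal markers summed to 1106 to 1246 CPM in resilient HIP libraries, against 1315 to 1401 CPM in susceptible ones. Excitatory neuron markers summed to 9106 to 9688 CPM, against 9713 to 9998 CPM. Their part in the Tet2 difference was not tested. In PFC, Tet2 had 46.5, 42.6, 33.8 and 46.04 CPM in imipramine non-responders, against 53.8, 52.5 and 40.8 CPM in susceptible mice, which overlapped, at -0.23 (SE 0.107, adjusted p = 0.952, edgeR's quasi-likelihood test). Without imipramine non-responder 3, the lowest library, this was -0.13. Tet3 had 0 of 44 tests at an unadjusted p below 0.05, with log2 fold changes of -0.32 to 0.19.

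**Figure D4:**
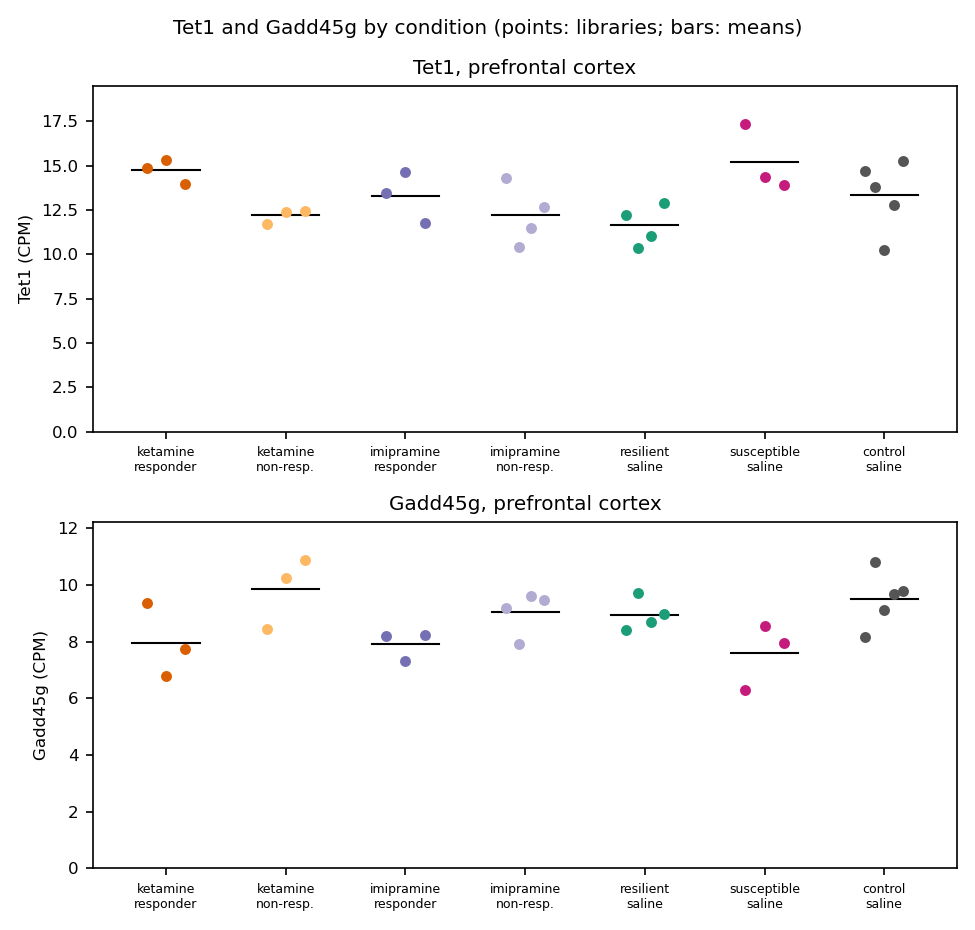
Tet1 (top) and Gadd45g (bottom) in prefrontal cortex in CPM (vertical axes, from 0) by condition; points are libraries and bars are means. Tet1 in resilient libraries (10.4 to 12.9) lies below susceptible libraries (13.9 to 17.4), and Gadd45g in susceptible libraries (6.30 to 8.56) overlaps with every other group.

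Gadd45b in PFC had its highest mean in control mice, and edgeR did not call it in any comparison with every library kept and no covariate. Resilient mice had 7.67, 7.83, 9.41 and 7.60 CPM and susceptible mice 7.91, 7.73 and 9.45 CPM, against 9.79, 11.4, 10.7, 12.8 and 10.4 CPM in controls. All 7 defeated saline libraries lay below all 5 control libraries, and the groups lay apart in this way, in either direction, for 26 of the 17517 genes tested (0.148%). Ketamine responders had 9.03, 7.76 and 8.40 CPM, ketamine non-responders 7.32, 7.51 and 8.12 CPM, imipramine responders 8.08, 6.82 and 8.66 CPM, and imipramine non-responders 8.20, 8.60, 11.2 and 8.62 CPM. Of the 20 libraries of defeated mice, 19 were below the lowest control library, among them 12 of the 13 from mice given a drug. The drug groups were not tested against controls, so the last counts describe levels.

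For Gadd45b in PFC, the log2 fold change was -0.42 in defeated against control mice (SE 0.0859, adjusted p = 0.468), -0.44 in resilient against control mice (SE 0.0982, adjusted p = 0.453) and -0.40 in susceptible against control mice (SE 0.109, adjusted p = 1.00, edgeR's quasi-likelihood test). Unadjusted p-values below 0.05 held for 5.86%, 9.36% and 3.10% of all genes in these comparisons. Leaving out any 1 library kept the 3 values between -0.51 and -0.35. Resilient and susceptible mice differed by -0.034 (SE 0.114, adjusted p = 0.981), and the 4 drug groups differed from susceptible saline mice by -0.12 to 0.12, with adjusted p-values of 0.953 to 1.00. These comparisons share the susceptible or control libraries.

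The call on Gadd45b turned on the model. Each of the 5 runs of sample numbers held 1 PFC control, and in 5 of the 5 runs the control was above every susceptible and resilient library of its run. All defeated saline libraries lay below all controls, so any split into runs would give this. With the runs as a covariate, edgeR called Gadd45b in defeated mice (-0.44, adjusted p = 0.00874, 1 of 3 genes called) and in resilient mice (-0.46, adjusted p = 0.0120, among 274 genes), and not in susceptible mice (-0.42, adjusted p = 0.291). Without PFC control 5 it was called in resilient mice (-0.46, adjusted p = 0.0375, among 155 genes). DESeq2 gave -0.42 in defeated mice with an adjusted p of 0.0862.

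In AMY, Gadd45b had 6.88, 7.77, 7.31 and 6.62 CPM in resilient mice and 6.98, 6.48 and 5.68 CPM in susceptible mice, against 6.55, 9.02, 6.95, 13.4 and 12.3 CPM in controls. The ranges overlapped, since 2 controls were as low as the defeated libraries and 2 were far higher. The log2 fold change was -0.51 in defeated mice (SE 0.185, adjusted p = 0.961, beside 4.09% of genes) and -0.59 in susceptible mice (SE 0.235, adjusted p = 1.00, beside 1.30% of genes). Leaving out 1 library gave -0.62 to -0.36 and -0.71 to -0.45. Striatal projection neuron markers moved with these groups: 10 of 10 had positive log2 fold changes in defeated AMY libraries, 9 at an unadjusted p below 0.05, and they summed to 670.2 to 2365 CPM in resilient and 772.7 to 1235 CPM in susceptible libraries, against 332.2 to 810.9 CPM in controls. Choroid plexus markers summed to 37.2 to 54.0 CPM in resilient and 53.4 to 58.3 CPM in susceptible libraries, against 13.7 to 786.2 CPM in controls, and 7 of 8 had negative log2 fold changes in defeated mice. The part of both in the Gadd45b difference was not tested.

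Gadd45b showed no such separation in the other regions. In NAC it had 9.79, 9.47, 8.09 and 8.53 CPM in resilient and 9.05, 10.5 and 9.59 CPM in susceptible mice, against 8.22, 7.78, 10.7, 8.74 and 9.59 CPM in controls, at 0.051 in defeated mice (SE 0.194, adjusted p = 1.00). In HIP it had 8.72, 8.90, 9.40 and 8.60 CPM in resilient and 7.44, 8.79 and 7.44 CPM in susceptible mice, against 8.33, 9.49, 9.45 and 8.66 CPM in controls, at -0.092 in defeated mice (SE 0.127, adjusted p = 1.00). Both pairs of groups overlapped. The test of whether the effect of defeat on Gadd45b differed between regions gave an adjusted p of 1.00 by edgeR's quasi-likelihood test, where 3.78% of genes had an unadjusted p below 0.05 and 0.0210% were called.

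**Figure D5:**
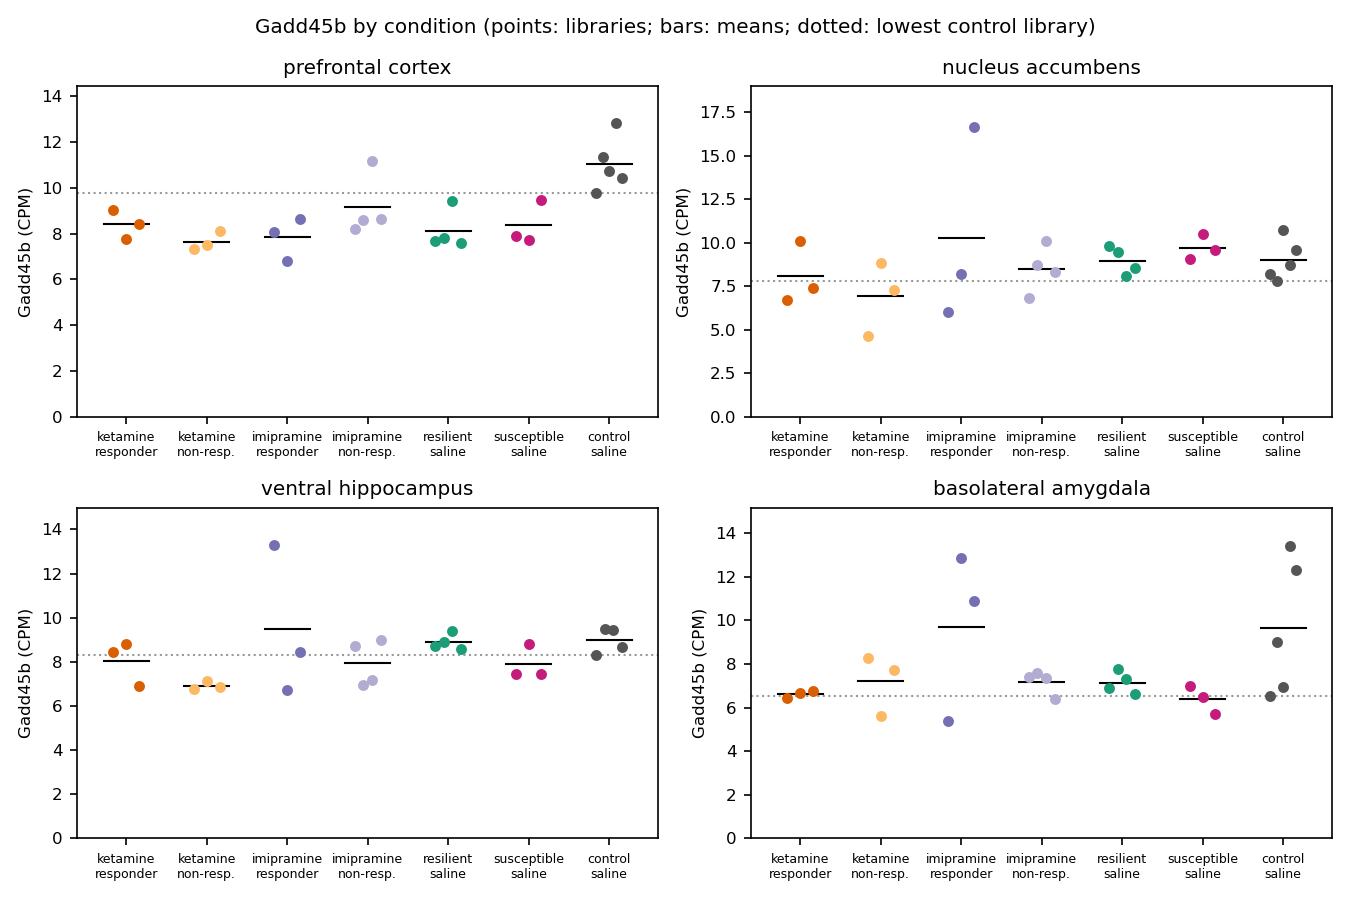
Gadd45b in CPM (vertical axes, from 0) by condition in each region; points are libraries, bars are means and the dotted line is the lowest control library. In prefrontal cortex 19 of 20 libraries of defeated mice lie below the line at 9.79, and in the other regions libraries of defeated mice lie on both sides of it.

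Gadd45g in PFC was low in susceptible mice, which had 6.30, 8.56 and 7.96 CPM, against 8.17, 10.8, 9.11, 9.68 and 9.79 CPM in controls. One susceptible library lay above the lowest control, and the log2 fold change was -0.33 (SE 0.113, adjusted p = 1.00). Without susceptible 1, the lowest library, it was -0.21. Resilient mice, at 8.40, 9.71, 8.69 and 9.00 CPM, were above susceptible mice by 0.24 (SE 0.117, adjusted p = 0.959), with 1 susceptible library inside their range, and this was 0.12 without susceptible 1. Susceptible and resilient mice as 1 group were below controls by -0.21 (SE 0.0891, adjusted p = 0.803, edgeR's quasi-likelihood test). In NAC, susceptible libraries lay below all controls, at 8.72 to 9.47 CPM, against 9.61 to 14.1 CPM. In AMY they did so too, at 9.39 to 10.8 CPM, against 11.3 to 18.3 CPM. The groups lay apart, in either direction, for 1.74% of all genes in NAC and 1.62% in AMY. In HIP they overlapped, at 11.4 to 13.8 CPM, against 11.6 to 17.5 CPM. The NAC and AMY differences were not called, and their unadjusted p-values were not below the threshold used above.

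Ketamine non-responders had 8.45, 10.2 and 10.9 CPM of Gadd45g in PFC, above susceptible mice by 0.38 (SE 0.124, adjusted p = 0.999). Ketamine responders, at 9.37, 6.80 and 7.74 CPM, were below the non-responders by -0.31 (SE 0.124, adjusted p = 1.00, edgeR's quasi-likelihood test), and by -0.20 without responder 2. The length index given for Tet1 above differed between these groups too. One responder library overlapped with the non-responders, and 1 susceptible library did too. Tet1 differed in the opposite direction in both of these comparisons, as given above, and the comparisons share libraries.

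Gadd45g in imipramine responders rested on single libraries. In NAC it had 9.52, 8.62 and 26.2 CPM in imipramine responders, against 9.10, 7.37, 8.87 and 9.30 CPM in imipramine non-responders and 8.88, 9.47 and 8.72 CPM in susceptible mice. The value of 26.2 is NAC imipramine responder 3, and the other libraries overlapped. The log2 fold changes were 0.78 over non-responders (SE 0.247, adjusted p = 0.220, beside 17.4% of genes) and 0.72 over susceptible mice (SE 0.268, adjusted p = 0.428, beside 11.6% of genes, edgeR's quasi-likelihood test). Without that library they were 0.07 and -0.0021, and with the runs as a covariate 0.51 and 0.45. Without NAC imipramine responder 1 or 2 instead, Gadd45g was called in both, at 1.02 and 1.06 over non-responders (adjusted p = 0.0112 and 0.0188) and at 0.96 and 1.00 over susceptible mice (adjusted p = 0.0389 and 0.0476). Those fits keep NAC imipramine responder 3 in a smaller group, and the share of all genes called in them is not given.

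In AMY, Gadd45g had 9.75, 26.4 and 14.1 CPM in imipramine responders, against 11.2, 13.4, 11.4 and 11.6 CPM in imipramine non-responders and 9.39, 10.8 and 10.3 CPM in susceptible mice. The value of 26.4 is AMY imipramine responder 2. The log2 fold changes were 0.50 over non-responders (SE 0.238, adjusted p = 0.321) and 0.73 over susceptible mice (SE 0.258, adjusted p = 0.395, edgeR's quasi-likelihood test). Leaving out that library gave -0.0049 and 0.22, and leaving out AMY imipramine responder 1 made the first a call at 0.76 (adjusted p = 0.0430). The fit with that call keeps AMY imipramine responder 2, and its share of all genes called is not given. Gadd45b in the same region had 5.38, 12.9 and 10.9 CPM in imipramine responders, against 6.98, 6.48 and 5.68 CPM in susceptible mice, at 0.61 (SE 0.261, adjusted p = 0.395). Without responder 2 this was 0.32, and imipramine responder 1 was the lowest library of both groups. Excitatory neuron markers summed to 3828 to 4672 CPM in these responders, against 4989 to 5580 CPM in susceptible mice. Inhibitory neuron markers summed to 1524 to 2053 CPM, against 1349 to 1518 CPM. Oligodendrocyte markers summed to 3608 to 4993 CPM, against 3018 to 3500 CPM. Mural and meningeal markers summed to 85.3 to 107.3 CPM, against 64.1 to 75.7 CPM. These lists lay apart, and neuron and astrocyte markers overlapped. Their part in the AMY differences was not tested.

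Gadd45a had 0 of 44 tests at an unadjusted p below 0.05, with log2 fold changes of -0.40 to 0.54. Its highest NAC value, 4.74 CPM in imipramine responder 3, compares with 1.63 and 1.92 CPM in the other imipramine responders and 1.52, 2.39, 1.54 and 2.11 CPM in imipramine non-responders. Without NAC imipramine responder 1 it was called over non-responders along with Gadd45g, in a fit that keeps imipramine responder 3.

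The region tests over all 99 libraries called 0 of 99 member effects as differing between regions. Unadjusted p-values below 0.05 were found for Gadd45b in defeated mice, for Dnmt3b in ketamine responders against non-responders (adjusted p = 1.00, beside 2.38% of genes) and for Gadd45g in imipramine responders against non-responders (adjusted p = 0.285, beside 12.0% of genes, edgeR's quasi-likelihood test). The shares of all genes called were 0.121% for resilient against control, 0.662% for ketamine responders and 0.00526% for ketamine non-responders against susceptible mice, 0.983% for ketamine against imipramine, and 0% for the others beside defeat.

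Gadd45b is itself an activity-induced gene, and 28 other such genes were listed. In PFC, 27 of 28 had negative log2 fold changes in defeated mice, 14 with an unadjusted p below 0.05 (beside 5.86% of all genes) and 0 called. Their median was -0.29, against -0.0011 over all 17517 genes, of which 50.4% were negative. The smallest p-values were those of Dusp6, a phosphatase of ERK (-0.39, adjusted p = 0.468), Ier2 (-0.60, adjusted p = 0.612) and Btg2 (-0.42, adjusted p = 0.803, edgeR's quasi-likelihood test). Summed levels of the list in PFC overlapped, at 1095 to 1405 CPM in resilient and 1142 to 1312 CPM in susceptible libraries, against 1145 to 1872 CPM in controls. By region, 23 of 28 were negative in AMY (median -0.26), 20 of 28 in NAC (median -0.20) and 17 of 28 in HIP (median -0.026). The share of all genes that were negative is not given for these 3 regions. The direction of this list in PFC was already known when it was drawn up.

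Genes that work with the members were described in the same way in PFC, and no difference between lists was tested. In defeated mice, 6 of 14 partners and readers of methylation had negative log2 fold changes (median 0.024), as had 9 of 17 genes of demethylation and repair (median -0.0047), 10 of 16 genes of methyl donor metabolism (median -0.0062) and 9 of 12 Gadd45 partners (median -0.028). None of these lists held a called gene there. The smallest p-values in them were those of Cxxc5, a CXXC zinc finger protein (-0.15), Ahcyl1, related to adenosylhomocysteinase (-0.091) and Ppm1d, a phosphatase induced by p53 (-0.13), each with an adjusted p of 0.803 by edgeR's quasi-likelihood test. Summed astrocyte markers ran from 2933 to 3672 CPM in resilient and 3595 to 4112 CPM in susceptible PFC libraries, against 3380 to 4415 CPM in controls.

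In all 44 comparisons, 1 gene of those 4 lists was called. Cxxc5 in HIP had 69.3, 67.7 and 73.8 CPM in ketamine responders and 73.1, 71.0 and 78.8 CPM in ketamine non-responders, against 60.1, 60.7 and 63.8 CPM in imipramine responders and 65.1, 59.4, 62.9 and 69.9 CPM in imipramine non-responders. One imipramine library reached into the ketamine range. The log2 fold change was 0.20 (SE 0.0453, adjusted p = 0.0222, edgeR's quasi-likelihood test). In the same comparison 9 of 10 thalamic markers were called higher with ketamine, with a median of 2.05, and their part in the Cxxc5 difference was not tested.

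The genes whose library-to-library pattern was most like each member were found from deviations from the 28 region and condition means over 99 libraries, with the means of the runs left in. They are given with Pearson's r as a description, and the value after it leaves out the 3 libraries of low length index. Dnmt1 went with Numa1 (0.921, 0.855), Dnmt3a with Kmt2e (0.924, 0.842), Tet1 with Kmt2c (0.931, 0.874), Tet2 with Tut4 (0.891, 0.814) and Tet3 with Cep350 (0.908, 0.833). Gadd45b went with Sertad1 (0.772, 0.720), Gadd45g with Id3 (0.827, 0.730), Gadd45a with Pfn1 (0.695, 0.584) and Dnmt3b with Git2 (0.453, 0.390). The next in rank were L1cam and Ppfia1 for Dnmt1, Kmt2a and Cramp1l for Dnmt3a, Dst and Phc3 for Tet1, Ubn2 and Fryl for Tet2, Ep300 and Med13l for Tet3, Tmem198 and R3hdm4 for Gadd45b, Npc2 and Bpgm for Gadd45g, C1qa and C1qb for Gadd45a, and Nod2 and Lama4 for Dnmt3b.

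Among the members, Tet1 and Tet3 varied together (0.877 over 99 libraries, 0.785 over 96), as did Dnmt3a and Tet1 (0.869 and 0.764). Gadd45b and Gadd45g had 0.638 and 0.530, and Tet1 and Gadd45g had -0.683 and -0.502. With the means of the runs removed as well, these 4 pairs had 0.419, 0.497, 0.375 and -0.271 over 96 libraries. These libraries share depth, scaling and the length index described above.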

How the data were processed

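RNA was measured in 99 libraries of poly-A-selected, unstranded RNA, each pooled from 2 mice per the labels' protocols. The authors deposited unscaled counts of reads for each Ensembl ID. HTSeq 0.6.0, TopHat2 2.0.9 and Bowtie2 2.1.0 were used with build NCBIM37, per the submitters' processing notes; counting options and annotation release are not given in the sources used here. Symbols matched 32919 of 37991 IDs (86.6%). Of 132 replicate pairs none held the same values (0 pairs), and chi-square over its degrees of freedom was at least 4.63.

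Counts were fitted with edgeR 4.0.16 in R 4.3.3 (quasi-likelihood, robust dispersion, TMM scaling, filterByExpr at a minimum count of 10), with 1 fit per region and 7 condition means, 1 fit of control libraries over 4 regions, and 1 of all 99 libraries for effects that differ between regions. Tests ran on 17517 (PFC), 17718 (NAC), 17758 (HIP), 18392 (AMY), 17720 (controls) and 19024 (all) genes, with Benjamini-Hochberg adjustment and a threshold of 0.05. SEs are from the F statistic. Exon lengths came from a later annotation (GENCODE, GRCm38), so per-length levels are approximate, and promoters are on GRCm38.p6.

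All members were named, with every test at an unadjusted p below 0.05, list genes that were called or had the 3 smallest p-values, and 3 genes of like pattern per member. Members and lists were chosen with earlier results of these data known. Alternatives were median-ratio scaling, no filter, non-robust dispersion, sample-number runs as a covariate, DESeq2 1.42.0, each library left out in turn, and 3 libraries left out together. The fits were tested on simulated counts.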

Additional observations from a re-analysis of the deposited data

Results flagged for a closer look

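Of 108 combinations of gene, region and condition with 4 or 5 libraries, 14 held a library far from the others of its group. Chance alone flags about 1 in 20 where combinations are separate. Here the 9 genes share libraries and vary together, so the 14 cannot be set against that rate. In PFC, Gadd45b was 9.41 CPM in resilient 3, with the others at 7.60 to 7.83, and 11.2 CPM in imipramine non-responder 3, with the others at 8.20 to 8.62. Both lie toward the control range. They belong to run 4 of the sample numbers, as do PFC susceptible 3 (9.45 CPM) and the highest PFC control (12.8 CPM). Ketamine non-responder 2 of that run had 7.51 CPM, the middle value of its group.

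In AMY, Gadd45b was 6.41 CPM in imipramine non-responder 4, with the others at 7.38 to 7.57. Gadd45g was 18.3 CPM in AMY control 4 (others 11.3 to 12.2), 8.56 CPM in AMY resilient 3 (others 11.6 to 12.1), 13.4 CPM in AMY imipramine non-responder 2 (others 11.2 to 11.6) and 17.5 CPM in HIP control 2 (others 11.6 to 12.3). Gadd45a was 3.49 CPM in AMY imipramine non-responder 2, with the others at 2.04 to 2.16.

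Dnmt3b was 1.08 CPM in AMY control 2 (others 0.517 to 0.626) and 0.412 CPM in PFC imipramine non-responder 4 (others 0.745 to 0.759), on few counts. Tet1 was 16.6 CPM in AMY control 1 (others 11.9 to 13.1) and 17.7 CPM in NAC imipramine non-responder 3 (others 21.1 to 21.6). Tet2 was 41.7 CPM in AMY imipramine non-responder 2 (others 47.8 to 48.8), and Tet3 was 80.7 CPM in NAC resilient 2 (others 91.8 to 93.7). AMY imipramine non-responder 2 thus stood apart for Tet2, Gadd45a and Gadd45g.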

How the results depend on the processing

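Between conditions, 0 members were called in 39 of 44 comparisons under every setting tried, and the exceptions follow. With the runs of sample numbers as a covariate, 1 member, Gadd45b, was called in PFC for defeated against control, for resilient against control and for any condition, and DESeq2 called 1 member in the last of these. Leaving out 1 library gave 0 to 1 member for PFC resilient against control, 0 to 1 for NAC imipramine responders against susceptible mice, 0 to 2 for NAC and 0 to 3 for AMY imipramine responders against non-responders. The share of all genes called in these imipramine fits is not given here. Leaving out together the 3 libraries of low length index, chosen after seeing the data, called 0 members in each comparison. Of 360 alternatives to the 28 named fold changes, 346 kept direction and side of the threshold, 10 became calls and 4 reversed. The 4 are all Gadd45g in imipramine responders: -0.0021 against susceptible mice in NAC, both without NAC imipramine responder 3 and without the 3 libraries, and against non-responders in AMY -0.0049 without AMY imipramine responder 2 and -0.012 without the 3 libraries. Leaving out 1 library at a time took these from -0.0021 to 1.00 in NAC and from -0.0049 to 0.76 in AMY. Between regions, 307 of 333 alternatives to the fold changes called kept their call and 26 lost it, with no reversal. The mean of all 7 conditions called 5 members for PFC against AMY, 8 for NAC against HIP, 7 for NAC against AMY and 6 for HIP against AMY, beside 61.8%, 68.97%, 63.7% and 66.3% of 19024 genes in that fit, and leaving out 1 control library gave 1 to 2 for the first. Median-ratio scaling changed no count of members by over 1.5 times. Tests of a difference between regions called 0 members in each setting. No paired analysis was possible because the titles give each library a number of its own and no replicate number that groups share; the 5 runs of these numbers were fitted as a covariate instead. That covariate moved 5 of the 28 named fold changes by over 1.5 times, each toward 0: Tet1 in PFC for ketamine responders against non-responders (0.12) and non-responders against susceptible mice (-0.21), Tet2 in HIP for resilient against susceptible mice (-0.12), and Gadd45g in NAC for imipramine responders against susceptible mice (0.45) and non-responders (0.51). Depth limits Dnmt3b and Gadd45a, and what limits the others was not tested.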
